A study of Mus musculus with 15 samples.

Results

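The genes examined here encode the Wnt ligands, their Frizzled receptors and the secreted Wnt inhibitors of the Sfrp and Dkk families. They were chosen by name, as every gene in the array annotation whose symbol is Wnt, Fzd, Sfrp or Dkk followed by a number and at most a letter a or b, which gave 37 genes of 22008 with a symbol. These were 19 ligands, 10 receptors, 4 Sfrp genes and 4 Dkk genes. Each gene was represented by 1 transcript cluster, the array's unit of measurement, and of the genes only Wnt4 had a second cluster, so that its brighter cluster was used.

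Whole primary mammary tumours of 5 mouse lines were profiled on the Mouse Gene 1.0 ST array of Affymetrix, with 3 tumours per line and 15 in all, taken as separate mice because the labels number the mice. The question posed was how metastatic tumours differ from non-metastatic tumours of the same origin. 67NR (non-metastatic) and 4T1.2 (metastatic, a clone of a single 4T1 cell) came from the same spontaneous mammary tumour and were grown in female BALB/c mice, as was EMT6.5 (metastatic), a single-cell clone of EMT6. EO771, from a spontaneous C57BL/6 mammary tumour, is described both as poorly metastatic and as the non-metastatic partner of its pair. EO771.LMB (metastatic) was derived from a lung nodule of an EO771-bearing mouse, and both were grown in female C57BL/6 mice. Per the methods both EO771 lines carried the fluorescent reporter mCherry, and 67NR and 4T1.2 tumours with this reporter were used as well, although whether those on the arrays carried it is not given in the sources used here. The mice were 6 to 8 weeks old per the labels, whereas the methods give an older age, and cells were placed in the fourth inguinal mammary fat pad. The 4T1 and EO771 models therefore differ in host strain as well as in line, and line and host strain cannot be told apart.

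Wnt proteins are secreted lipid-modified ligands. They bind Frizzled receptors together with Lrp5 or Lrp6 to stabilise beta-catenin, or signal through Frizzled and Ror or Ryk receptors to the cytoskeleton and cell polarity without it. Sfrp proteins resemble the ligand-binding domain of Frizzled and bind Wnts outside the cell, whereas Dkk1, Dkk2 and Dkk4 bind Lrp5 and Lrp6. In the mouse mammary gland the pathway is known for placode formation, ductal side branching and stem cell maintenance, and Wnt1 was found there as a gene activated by mouse mammary tumour virus.

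Values are log2 signals as deposited, and differences between tumour types are on the log2 scale, with the fold beside them for the main genes. Array medians were 6.32 to 6.44, single values ran from 3.26 to 13.98, and Pearson's r between tumours of a line was 0.983 to 0.989 across clusters, which are not independent replicates. No detection call was used, so a low signal could not be told apart from none, and levels were compared between tumours and not between genes. Of the 37 genes, 10 had a mean signal above the median of all clusters (6.40). The tumours were read in bulk, where fewer cells of a type and less RNA per cell cannot be told apart. The epithelial keratin Krt8 was between 9.60 and 10.88 in the 15 tumours, whereas the epithelial adhesion genes Epcam and Cdh1 were between 5.10 and 6.76 and between 5.47 and 6.91.

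Over the 5 tumour types, 20 of the 37 genes differed (limma moderated F-test, adjusted p under 0.05), against 43.1% of all clusters called by that test. By family these were 9 of 19 ligands, 6 of 10 receptors, 3 of 4 Sfrp genes and 2 of 4 Dkk genes. Among clusters above the median signal 63.3% were called, and 8 of the 10 brighter members were. The highest and the lowest type mean lay at least 1 apart in 11 of the called genes, which was so for 17.6% of clusters. In order of that range they were Dkk2 (5.72), Sfrp1 (2.89), Fzd6 (2.54), Fzd1 (2.15), Fzd7 (2.11), Sfrp4 (2.03), Wnt5a (1.87), Fzd3 (1.82), Sfrp2 (1.50), Wnt10a (1.34) and Wnt6 (1.01). All 4 families were thus among them. Ligands were 3 of the 11, and receptors and inhibitors the other 8. The 3 of 19 ligands were near the 17.6% share of clusters.

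**Figure D1:**
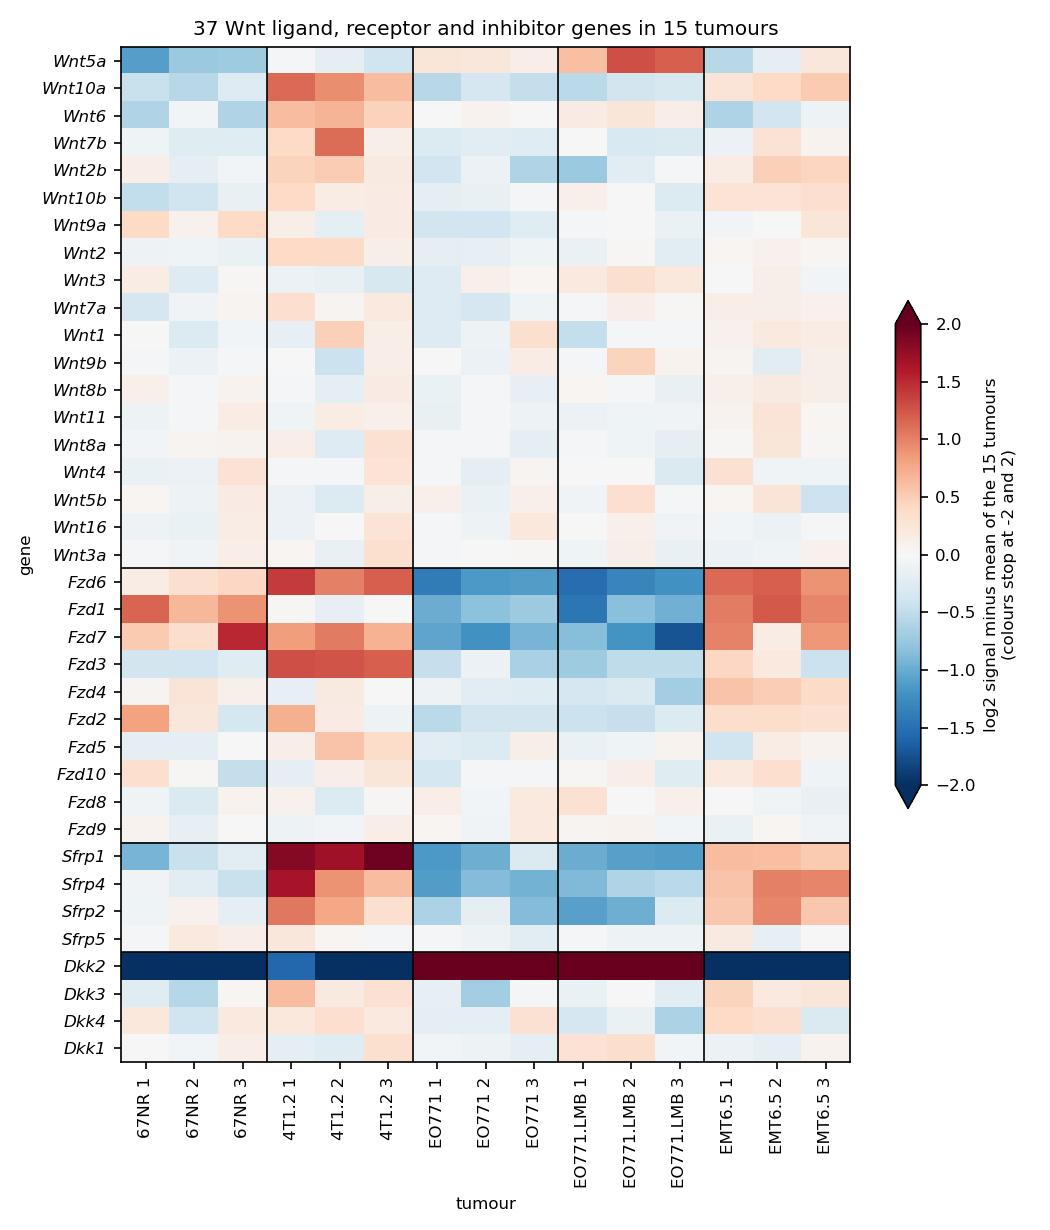
The log2 signal of each of the 37 genes (rows, by family and then by range of type means) in each of the 15 tumours (columns) is shown minus that gene's mean over the tumours, red for higher and blue for lower. Dkk2 is high in the EO771 and EO771.LMB tumours and low in the other 9, and most ligand rows are pale.

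Among the ligands, Wnt5a signals through polarity and calcium pathways as well as through Ror receptors. Its log2 signals were 4.51, 4.86 and 4.90 in the 67NR tumours and 5.59, 5.41 and 5.20 in the 4T1.2 tumours. EO771 tumours gave 5.84, 5.83 and 5.73, EO771.LMB tumours 6.21, 6.88 and 6.79 and EMT6.5 tumours 5.05, 5.41 and 5.83. Every EO771.LMB tumour lay above every tumour of the other 4 types, and every 67NR tumour below every 4T1.2 and EO771 tumour. The mean of the EO771 model was 1.14 higher than that of the 4T1 model (SE 0.14, 2.20-fold, adjusted p = 1.6e-05), and the groups did not overlap. Within the models, 4T1.2 was higher than 67NR by 0.64 (SE 0.20, adjusted p = 0.041) and EO771.LMB stood 0.83 from EO771 (SE 0.20), a difference with an unadjusted p of 0.0011 that did not pass after adjustment (0.22).

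Wnt10a activates beta-catenin signalling and is best known from hair, tooth and fat cell development. Its signals were 5.92, 5.81 and 6.10 in 67NR against 7.50, 7.29 and 6.98 in 4T1.2. In EO771, EO771.LMB and EMT6.5 they ran from 5.81 to 6.03, from 5.83 to 6.04 and from 6.62 to 6.88. The 4T1.2 tumours were the highest of all, the EMT6.5 tumours came next without overlap, and the other 3 types overlapped. 4T1.2 exceeded 67NR by 1.31 (SE 0.13, 2.48-fold, adjusted p = 6.8e-06), and no difference was called between EO771.LMB and EO771 (0.04, SE 0.13).

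Wnt6, a ligand expressed in epithelia during development, lies next to Wnt10a on chromosome 1, with no protein-coding gene between them in the RefSeq annotation of GRCm38.p6. Its signals were 4.96, 5.50 and 4.96 in 67NR and 6.18, 6.25 and 6.02 in 4T1.2. They ran from 5.55 to 5.63 in EO771, from 5.69 to 5.80 in EO771.LMB and from 4.95 to 5.47 in EMT6.5. As for Wnt10a, the 4T1.2 tumours were the highest, but for Wnt6 the EMT6.5 tumours overlapped with 67NR. The difference between 4T1.2 and 67NR was 1.01 (SE 0.15, 2.01-fold, adjusted p = 2.7e-04). Wnt3a and Wnt9a, Wnt9b and Wnt3, and Wnt10b and Wnt1 also lie next to each other in this way. In these pairs only Wnt9a and Wnt10b were called over the 5 types.

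Smaller ranges of type means were seen for the other called ligands, which were Wnt7b (0.79), Wnt2b (0.75), Wnt10b (0.64), Wnt9a (0.62), Wnt2 (0.44) and Wnt7a (0.42). The type mean was highest in 4T1.2 for Wnt2, in EMT6.5 for Wnt10b and in 67NR for Wnt9a. The call of Wnt7a was lost when each array was centred on its median or quantile normalised, and those of Wnt2 and Wnt7b with quantile normalization and one-way analysis of variance respectively. That of Wnt7a was also lost without any 1 of the EO771.LMB or EMT6.5 tumours, 67NR replicate 2, 4T1.2 replicates 1 or 3 or EO771 replicates 1 or 2. The remaining 10 ligands had ranges of 0.11 to 0.44 and passed no threshold over the 5 types. They include Wnt1 and Wnt4, the latter a ligand of ductal side branching whose brighter cluster had type means only 0.17 apart and whose other cluster did not differ either (adjusted p = 0.47).

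The Frizzled receptors held the widest ranges of type means after Dkk2 and Sfrp1. Fzd6, a receptor with a role in planar polarity of hair follicles, had signals of 7.91, 8.08 and 8.17 in 67NR and 9.16, 8.77 and 8.95 in 4T1.2. The EO771 tumours gave 6.37, 6.62 and 6.65, the EO771.LMB tumours 6.24, 6.44 and 6.56 and the EMT6.5 tumours 8.90, 8.96 and 8.67. The 6 tumours of the EO771 model were all below the 9 BALB/c tumours, and the 67NR tumours all below those of 4T1.2 and EMT6.5. The EO771 model was lower than the 4T1 model by 2.03 (SE 0.09, 4.08-fold, adjusted p = 3.6e-10), and 4T1.2 was higher than 67NR by 0.90 (SE 0.13, 1.87-fold, adjusted p = 2.2e-04).

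Fzd7, a receptor of beta-catenin signalling, showed the same split between the models but not within them. Signals were 8.01, 7.83 and 8.99 in 67NR, 8.32, 8.51 and 8.17 in 4T1.2 and 8.46, 7.63 and 8.35 in EMT6.5. The EO771 tumours gave 6.43, 6.27 and 6.54 and the EO771.LMB tumours 6.63, 6.29 and 5.75. All 6 C57BL/6 tumours lay below all 9 BALB/c tumours, while the 3 BALB/c types overlapped. The EO771 model was lower by 1.99 (SE 0.21, 3.96-fold, adjusted p = 2.3e-06), and between 4T1.2 and 67NR the difference was 0.06 with a 95% interval of -0.56 to 0.69.

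Fzd1, another receptor of beta-catenin signalling, was lower in 4T1.2 than in 67NR. Its signals were 7.96, 7.46 and 7.69 in 67NR and 6.81, 6.62 and 6.78 in 4T1.2. EMT6.5 tumours had 7.82, 8.01 and 7.76, EO771 tumours 5.80, 5.97 and 6.07 and EO771.LMB tumours 5.35, 5.95 and 5.83. 67NR and EMT6.5 tumours shared the high range, 4T1.2 was intermediate and the EO771 model low, with no overlap between these 3 levels. The difference between 4T1.2 and 67NR was -0.97 (SE 0.16, 1.95-fold, adjusted p = 5.9e-04), and the EO771 model was 2.62-fold below the 4T1 model (difference -1.39, SE 0.11, adjusted p = 1.6e-07).

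The sequences upstream of Fzd1 and Fzd7 are shown because both receptors were low in all EO771 and EO771.LMB tumours. RefSeq promoter windows of the build GRCm38.p6 were given for 25 of the 37 genes. The 250 bases before the start of the window's transcript lie at chr5:4758217-4758466 on the minus strand for Fzd1 and at chr1:59481897-59482146 on the plus strand for Fzd7. Capitals mark TATAAA, searched on both strands, a motif found in 12.37% of all 32851 such windows and in those of 4 of the 25 genes, Dkk1, Dkk2, Fzd1 and Wnt11.
Fzd1: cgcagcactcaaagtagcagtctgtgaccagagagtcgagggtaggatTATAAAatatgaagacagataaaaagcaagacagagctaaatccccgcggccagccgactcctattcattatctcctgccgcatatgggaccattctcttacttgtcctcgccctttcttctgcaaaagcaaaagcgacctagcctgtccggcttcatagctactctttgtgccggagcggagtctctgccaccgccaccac
Fzd7: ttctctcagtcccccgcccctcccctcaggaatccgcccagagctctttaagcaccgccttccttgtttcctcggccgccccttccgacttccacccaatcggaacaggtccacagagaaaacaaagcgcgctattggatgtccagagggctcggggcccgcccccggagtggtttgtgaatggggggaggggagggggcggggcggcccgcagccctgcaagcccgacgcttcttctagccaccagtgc
The Fzd1 match was 202 to 197 bases before the start, and Fzd7 had none. CG dinucleotides numbered 12 and 17 in these windows, against a median of 6 (quartiles 2 and 16) over all windows. CTTTGAT, the core motif of the TCF and LEF factors that act with beta-catenin, was in 3.21% of all windows and in those of Wnt5b and Wnt11 among the 25 genes, on either strand. These matches are a description of the letters and not of binding.

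Fzd3, which acts in axon guidance and tissue polarity, was high in 4T1.2. Its signals were 4.79, 4.79 and 4.92 in 67NR and 6.46, 6.42 and 6.37 in 4T1.2. EO771 gave 4.52 to 5.05, EO771.LMB 4.46 to 4.66, and EMT6.5 5.59, 5.36 and 4.74. No tumour of another type reached the 4T1.2 range, and the EMT6.5 tumours were spread upwards from the range of the rest. The difference between 4T1.2 and 67NR was 1.58 (SE 0.18, 2.99-fold, adjusted p = 2.1e-05).

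Fzd4, which also serves as the receptor of the non-Wnt ligand norrin, and Fzd2 were called with ranges of type means of 0.93 and 0.76, the latter not under centring, quantile normalization or one-way analysis of variance, nor without replicates 1 or 2 of EO771 or of EO771.LMB. Fzd4 was between 6.14 and 6.31 in EMT6.5, above all other tumours. Fzd5, Fzd8, Fzd9 and Fzd10 did not pass the test over the 5 types, with ranges of 0.11 to 0.48.

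Of the secreted inhibitors, Sfrp1 binds Wnts and is often silenced in human breast cancer. Its signals were 5.38, 5.86 and 6.10 in 67NR and 8.14, 8.00 and 8.25 in 4T1.2. EMT6.5 tumours gave 6.92, 6.90 and 6.83, EO771 tumours 5.16, 5.34 and 6.03 and EO771.LMB tumours 5.31, 5.22 and 5.20. The 4T1.2 tumours stood alone at the top, EMT6.5 followed without overlap, and 67NR overlapped with EO771. 4T1.2 exceeded 67NR by 2.35 (SE 0.20, 5.10-fold, adjusted p = 1.1e-06), the widest of the 37 differences in that pair.

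Sfrp4, a relative of Sfrp1 found in stroma and bone, had signals of 6.58, 6.42 and 6.20 in 67NR and 8.29, 7.54 and 7.26 in 4T1.2. It had 5.52 to 5.78 in EO771, 5.76 to 6.11 in EO771.LMB and 7.22 to 7.66 in EMT6.5. 4T1.2 and EMT6.5 shared the high range, 67NR lay between, and the EO771 model was lowest without overlap with any BALB/c tumour. 4T1.2 was higher than 67NR by 1.30 (SE 0.22, 2.46-fold, adjusted p = 6.1e-04), and the EO771 model was 2.34-fold below the 4T1 model (difference -1.23, SE 0.15, adjusted p = 1.4e-05).

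Sfrp2, which is made largely by fibroblasts in tumours, showed signals of 7.87, 8.05 and 7.78 in 67NR and 9.02, 8.74 and 8.28 in 4T1.2. EO771 had 7.32, 7.79 and 7.10, EO771.LMB 6.87, 6.99 and 7.69 and EMT6.5 8.51, 8.93 and 8.50. The order of the types was that of Sfrp4 at the top, but the highest EO771 tumour reached the lowest 67NR tumour. 4T1.2 was higher than 67NR by 0.78 (SE 0.24, 1.72-fold, adjusted p = 0.035), and the EO771 model was 2.00-fold below the 4T1 model (difference -0.997, SE 0.17, adjusted p = 2.4e-04). Sfrp5 was at most 5.43 in the 15 tumours and did not pass the test (adjusted p = 0.34).

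Dkk2, an Lrp5 and Lrp6 ligand that blocks Wnt signalling in most settings, gave the widest difference of the 37 genes. The EO771 tumours had signals of 11.54, 11.90 and 11.68, and the EO771.LMB tumours of 11.49, 11.78 and 11.76. They were 6.36, 6.33 and 6.13 in 67NR, 6.84, 6.15 and 6.33 in 4T1.2 and 5.88, 5.99 and 6.10 in EMT6.5. The gene was thus high in every C57BL/6 tumour, none of which was below 11.49, and low in every BALB/c tumour, none of which was above 6.84. The EO771 model exceeded the 4T1 model by 5.34 (SE 0.11, 40.4-fold, adjusted p = 2e-13). No difference was called between EO771.LMB and EO771 (-0.03, 95% interval -0.38 to 0.31) or between 4T1.2 and 67NR (0.17, -0.18 to 0.51).

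The upstream sequence of Dkk2 is shown as that of the gene with the widest difference. The RefSeq window lies on the plus strand of GRCm38.p6, and the 224 bases at chr3:132085042-132085265 are printed, without the last 26 bases before the window's start, which another annotated transcript of the gene covers. Capitals mark TATAAA.
Dkk2: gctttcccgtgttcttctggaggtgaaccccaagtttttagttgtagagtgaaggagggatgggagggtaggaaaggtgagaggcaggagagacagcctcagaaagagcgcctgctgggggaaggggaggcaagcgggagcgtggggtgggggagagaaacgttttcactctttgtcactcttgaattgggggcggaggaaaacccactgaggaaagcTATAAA
The match was 32 to 27 bases before the window's start, and the 250 bases held 7 CG dinucleotides. Dkk3, which does not bind Lrp5 or Lrp6 as the other Dkk proteins do, was called with a range of type means of 0.66 and its type means were highest in 4T1.2 and EMT6.5. Dkk1 (4.99 to 5.58) and Dkk4 (4.66 to 5.68) did not pass the test over the 5 types.

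**Figure D2:**
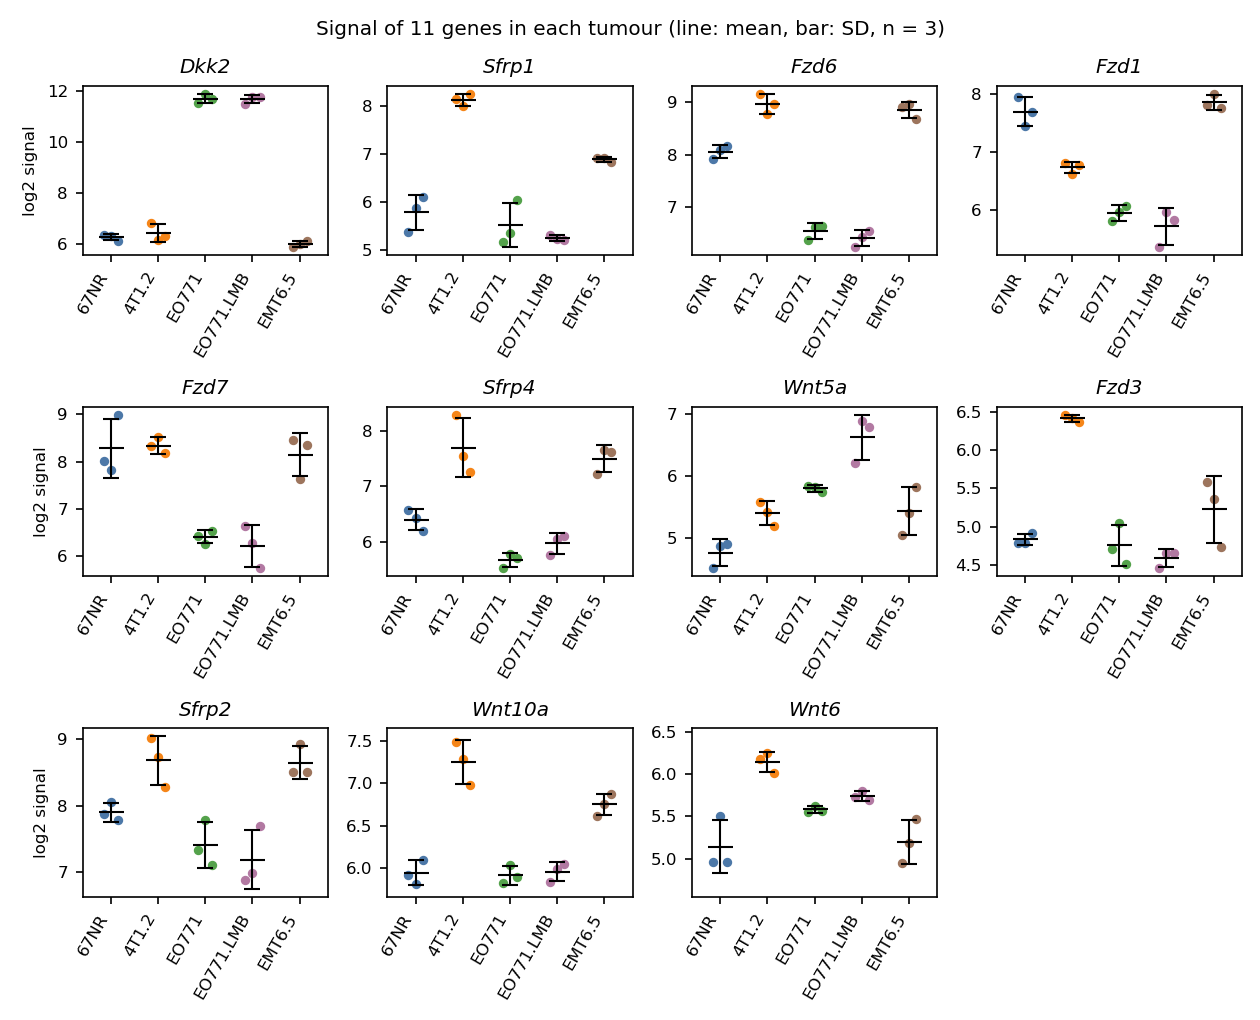
The log2 signal in every tumour is plotted for the 11 genes whose type means ranged over at least 1, with the mean (line) and SD (bar) of the 3 tumours of each type. Dkk2 separates the EO771 and EO771.LMB tumours from the rest, Fzd6, Fzd7 and Fzd1 are lowest in them, and Sfrp1, Fzd3, Wnt10a and Wnt6 are highest in 4T1.2.

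In the 4T1 model, metastatic 4T1.2 was compared with non-metastatic 67NR. Of the 37 genes, 12 were higher in 4T1.2 (background 8.69% of clusters) and 1 was lower (9.12%), or 13 in all against 17.8%. The 12 were the ligands Wnt10a, Wnt6, Wnt7b (0.73), Wnt5a, Wnt10b (0.58) and Wnt2 (0.41), the receptors Fzd3 and Fzd6, and the inhibitors Sfrp1, Sfrp4, Sfrp2 and Dkk3 (0.62), and Fzd1 was the lower one. By family, 6 of 19 ligands, 2 of 10 receptors, 3 of 4 Sfrp genes and 1 of 4 Dkk genes were higher. Differences over the 37 had a median of 0.11, against 0.05 over all clusters. In 14 genes every 4T1.2 tumour lay above every 67NR tumour (17.6% of clusters), and in 1 gene below (14.5%).

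The calls of Wnt5a, Sfrp2, Dkk3, Wnt7b and Wnt2 in this pair depended on the processing, and all but that of Wnt2 on single tumours as well. One-way analysis of variance called 10 genes in place of 13, without Wnt5a, Sfrp2 and Dkk3 (adjusted p 0.081, 0.077 and 0.058), and a fit to 67NR and 4T1.2 alone also 10, without Dkk3, Wnt2 and Wnt7b (0.059, 0.063 and 0.077). Centring each array on its median or quantile normalization left 12, without Wnt5a (0.056 and 0.077). The call of Wnt5a was lost without any 1 of the 67NR or EO771 tumours, 4T1.2 replicates 1 or 2 or EMT6.5 replicate 2 (adjusted p 0.052 to 0.16), and that of Sfrp2 without any 1 of the 67NR tumours or 4T1.2 replicates 1 or 2 (0.054 to 0.13). Dkk3 was lost without 67NR replicates 1 or 2 or 4T1.2 replicates 1 or 3 (0.056 to 0.13), and Wnt7b without 67NR replicates 2 or 3 (0.056 and 0.052). Cell type markers moved in the same comparison, in which 8.69% of all clusters were higher and 9.12% lower. In 4T1.2, 6 of 12 fibroblast markers were higher and 2 lower, and their summed linear signal was 9009 to 12343 in 4T1.2 and 6866 to 8319 in 67NR. Of 10 neutrophil markers 5 were higher (sums 1217 to 1702 against 564 to 686), of 14 epithelial markers 3 were higher (2927 to 3220 against 1542 to 1799), and of 10 macrophage markers 5 were lower (10475 to 11574 against 14088 to 15590). In the T and NK cell list Cd3e (-1.20) and Cd3d (-0.81) were lower and the others not called, with sums of 560 to 578 against 756 to 1380. In the pericyte and smooth muscle list Acta2 (0.96) and Mcam (0.81) were higher, Rgs5 (-0.51) was lower and the others were not called. The part of these cells in the Wnt gene values was not tested.

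In the EO771 model, metastatic EO771.LMB was compared with EO771. None of the 37 genes was called by limma, where 0.0197% of clusters were called in either direction (0 higher and 7 lower). The differences ran from -0.35 (Dkk4) to 0.83 (Wnt5a), with a median of 0.04 against 0.01 over all clusters. At an unadjusted p under 0.05, which 8.3% of clusters reached, there were 4 genes, all ligands and all higher, namely Wnt5a, Wnt3 (0.29), Wnt9a (0.29) and Wnt7a (0.27). One-way analysis of variance gave 0 after adjustment and 4 before. Every EO771.LMB tumour lay above every EO771 tumour for these 4 and for Wnt6 (5 genes, background 7.8%), and below for Fzd4 (1 gene, 6.89%). The adjusted p of Wnt5a ranged from 0.065 to 0.65 over the alternative settings, so it passed in none of them.

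**Figure D3:**
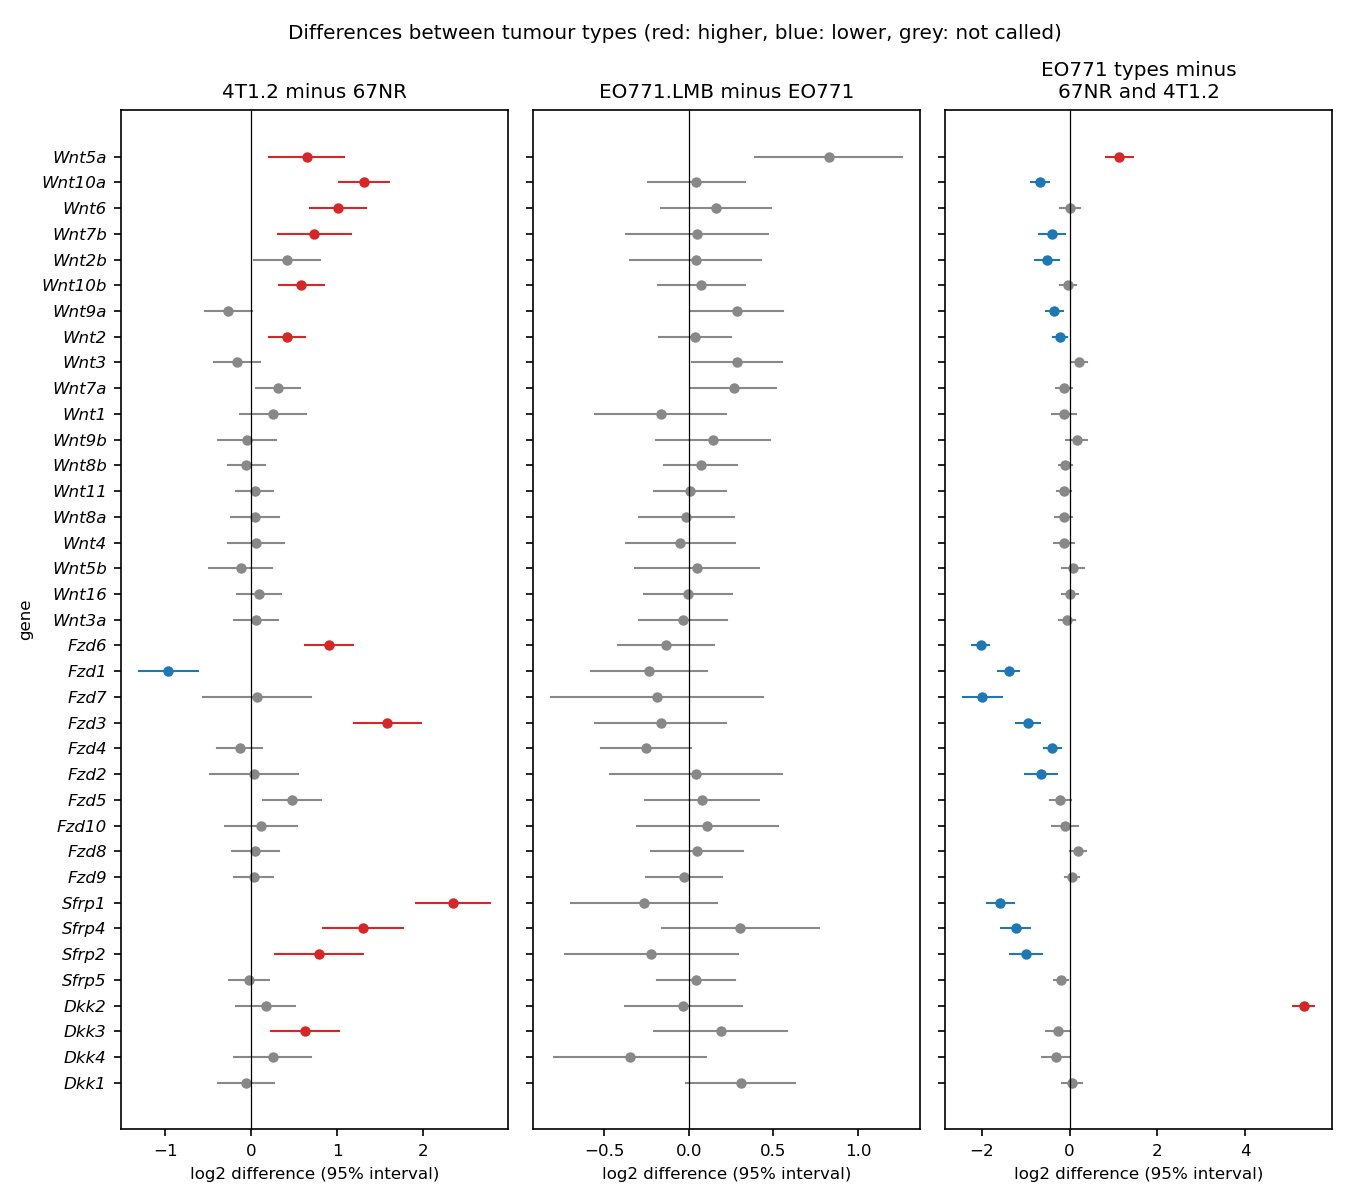
The log2 difference of each of the 37 genes is plotted as a point with its 95% interval from left to right for 4T1.2 less 67NR, for EO771.LMB less EO771 and for the EO771 model less the 4T1 model, on axes of different widths. Red and blue points passed the adjusted threshold as higher and lower, which were 12 and 1 in the first, 0 in the second, and 2 and 14 in the third.

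The test of whether the pairs changed by different amounts called 5 genes as rising more from 67NR to 4T1.2 than from EO771 to EO771.LMB (background 4.9%) and 0 as rising less (5.28%), against 10.2% in either direction. At an unadjusted p under 0.05 (22% of clusters) limma and one-way analysis of variance each gave 10 and 3, and with adjustment the latter also gave 5 and 0. The 5 were Sfrp1 with a difference of differences of 2.62 (SE 0.28), Fzd3 with 1.75 (SE 0.26), Wnt10a with 1.27 (SE 0.19), Fzd6 with 1.04 (SE 0.19) and Wnt6 with 0.85 (SE 0.21). For Wnt5a, which was higher in the metastatic type of the 4T1 pair, the changes were not shown to differ (-0.18, 95% interval -0.80 to 0.43). The 5 rose to 9 without 4T1.2 replicate 3, the 0 became 2 without 67NR replicate 2 and 1 without EO771.LMB replicate 1, and Wnt6 lost its call without 67NR replicate 1 (adjusted p = 0.056) or 3 (0.052).

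Between the models, the mean of EO771 and EO771.LMB was set against the mean of 67NR and 4T1.2. Of the 37 genes 2 were higher in the EO771 model (background 19%), Dkk2 and Wnt5a, and 14 were lower (19.3%), where 38.4% of clusters were called in either direction. Receptors made up 6 of the 14 lower genes (Fzd6, Fzd7, Fzd1, Fzd3 at -0.95, Fzd2 at -0.65 and Fzd4 at -0.39), Sfrp genes 3 (Sfrp1 at -1.58, Sfrp4 and Sfrp2) and ligands 5 (Wnt10a at -0.67, Wnt2b at -0.52, Wnt7b at -0.40, Wnt9a at -0.35 and Wnt2 at -0.22). The 10 receptors had a median difference of -0.52 and the 19 ligands one of -0.12, against -0.04 over all clusters. Tumours did not overlap for 2 genes that were higher (10.7% of clusters) and 5 that were lower (7.85%). For Fzd3, Sfrp1 and Wnt10a the 67NR tumours overlapped with those of EO771. Of the types compared here, only the 4T1.2 tumours lay above both EO771 types and 67NR for these genes. At an unadjusted p under 0.05, which 45.5% of clusters reached, 4 genes were higher and 15 lower.

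In this comparison Wnt7b and Wnt2 lost their calls when each array was centred on its median (adjusted p 0.086 and 0.13) or quantile normalised (0.093 and 0.10), and Wnt3 and Fzd8 were then called, so that 4 genes were higher. One-way analysis of variance also called 16, with Sfrp5 in place of Wnt7b (0.066). Without any 1 of the 67NR or EO771 tumours, 4T1.2 replicate 2 or EO771.LMB replicates 2 or 3 Wnt7b was also lost (0.051 to 0.076), and Wnt2 without 4T1.2 replicates 1 or 2 or EO771.LMB replicate 3 (0.053 to 0.054). Of 12 fibroblast markers 9 were lower in the EO771 model, with summed signals of 4518 to 5653 in EO771 and 5113 to 6156 in EO771.LMB against the 6866 to 12343 of 67NR and 4T1.2. Of 10 macrophage markers 9 were lower as well, with sums of 5179 to 6261 in EO771 and 4352 to 5309 in EO771.LMB against 10475 to 15590. Of 8 pericyte and smooth muscle markers 4 were lower, Rgs5 (-1.27), Mcam (-1.11), Acta2 (-0.60) and Myh11 (-0.38), with sums of 1219 to 1495 in EO771 and 1207 to 1343 in EO771.LMB against 2322 to 2879. In the endothelial list 1 of 10 markers was higher and 4 lower, in the epithelial list 1 and 4 of 14, and in the neutrophil list 2 and 4 of 10. Over all clusters 19% were higher and 19.3% lower, so the higher counts were near or below that share. The part of these cells in the lower receptor and Sfrp signals was not tested.

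EMT6.5, which shares the BALB/c host with the 4T1 model, was compared with the mean of 67NR and 4T1.2. Of the 37 genes 3 were higher in EMT6.5 (background 9.59%), Fzd1 by 0.64 (SE 0.14), Fzd4 by 0.41 (SE 0.11) and Wnt10b by 0.35 (SE 0.10), and 1 was lower (8.33%), Wnt6 at -0.45 (SE 0.13), against 17.9% of clusters in either direction. No tumours overlapped for Fzd4 (1 gene higher, background 7.41%) and for Dkk2, which was not called (1 gene lower, 5.94%). For Fzd1 and Wnt6 the EMT6.5 tumours overlapped with those of 67NR and lay apart from those of 4T1.2 alone. For Wnt10b, which was itself 0.58 higher in 4T1.2 than in 67NR, the EMT6.5 tumours overlapped with those of the 4T1 model. At an unadjusted p under 0.05 (28.7% of clusters) 5 genes were higher and 3 lower. The 3 became 5 without 4T1.2 replicate 1 and 1 without EMT6.5 replicate 1 or 2, and the 1 became 0 without EMT6.5 replicate 2. Fzd4 lost its call without EMT6.5 replicate 1 or 2 (adjusted p 0.069 and 0.055), Wnt10b without any 1 of 67NR replicates 1 or 2, 4T1.2 replicates 2 or 3 or the EMT6.5 tumours (0.059 to 0.12), and Wnt6 without 4T1.2 replicate 2 or EMT6.5 replicates 1 or 2 (0.057 to 0.16). Wnt6 was also lost with quantile normalization (0.051), one-way analysis of variance (0.050) and a fit to the types compared (0.085), and Wnt10b in the last of these (0.053). Several marker lists moved in this comparison. Of 8 pericyte and smooth muscle markers 3 were higher in EMT6.5, Acta2 by 2.64, Des by 1.32 and Cspg4 by 0.68. Des was 7.17, 5.21 and 7.79 in the EMT6.5 tumours and overlapped with 67NR and 4T1.2. Rgs5, Myh11, Tagln, Notch3 and Mcam were not called. The summed signals of the list were 4642 to 5298 against 2322 to 2879 in 67NR and 4T1.2. Acta2 weighed most in the EMT6.5 sums, at 11.37 to 11.77 against 8.00 to 9.41 in 67NR and 4T1.2. Of 10 macrophage markers 9 were lower (6973 to 8581 against 10475 to 15590) and of 10 neutrophil markers 6 (484 to 501 against 564 to 1702), with no overlap in either sum. Of 12 fibroblast markers 4 were higher and 1 lower, and of 14 epithelial markers 4 and 1, with sums that overlapped. Of 6 skeletal muscle markers 5 were higher in EMT6.5, with sums of 351 to 3384 that differed between its tumours, against 330 to 479 in 67NR and 4T1.2. For these 5, as for Des, EMT6.5 replicate 2 lay within the range of 67NR and 4T1.2, and only replicates 1 and 3 lay above it. The part of these cells in the Fzd1, Fzd4, Wnt10b and Wnt6 values was not tested.

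Genes that act with these ligands and receptors were read from lists chosen with earlier results in view. Comparing 4T1.2 with 67NR, 6 of 20 co-receptors, other receptors and R-spondins were higher (8.69% of all clusters) and 0 were lower (9.12%). Tpbg, a membrane protein that restrains beta-catenin signalling, was 8.60, 7.76 and 8.91 in 67NR, 10.17, 10.15 and 10.10 in 4T1.2 and 5.04 to 5.55 in the EO771 model. It was 3.28-fold higher in 4T1.2 than in 67NR (difference 1.71, adjusted p = 6.1e-05) and 15.9-fold lower in the EO771 model than in the 4T1 model (-3.99, adjusted p = 5.4e-11). Lgr4, an R-spondin receptor that raises Wnt responses, was higher in 4T1.2 by 1.64 (adjusted p = 1.5e-06) and Ptk7, a polarity co-receptor, by 1.17 (adjusted p = 8.5e-05). Against the 4T1 model, 2 of the 20 were higher (19% of all clusters) and 6 lower (19.3%) in the EO771 model, the 2 being a smaller share than over all clusters, and 4 were higher (9.59%) and 4 lower (8.33%) in EMT6.5. Rspo2, a secreted enhancer of Wnt responses, was 7.91, 8.49 and 8.73 in the EMT6.5 tumours and at most 6.26 in the other 12, which made it 6.66-fold higher than in the 4T1 model (2.74, adjusted p = 2e-07).

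Of 13 genes of Wnt secretion and other secreted modulators, 2 were higher (8.69% of all clusters) and 0 lower (9.12%) in 4T1.2 than in 67NR. Gpr177, now named Wls, carries Wnts to the cell surface. It was 10.55 to 10.90 in the BALB/c tumours and 9.15 to 9.60 in those of the EO771 model, 2.71-fold lower than in the 4T1 model (-1.44, adjusted p = 7.9e-10). Porcn, the enzyme that adds the lipid to Wnts, was higher in EMT6.5 than in the 4T1 model by 1.22 (adjusted p = 8.3e-06). In the EO771 model 2 of these 13 genes were higher (19%) and 3 lower (19.3%), and in EMT6.5 1 was higher (9.59%) and 1 lower (8.33%), counts near those shares.

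Among 25 genes known as beta-catenin targets, 5 were higher (8.69% of all clusters) and 3 lower (9.12%) in 4T1.2 than in 67NR. In the EO771 model 4 were higher (19%) and 9 lower (19.3%) than in the 4T1 model, and in EMT6.5 6 were higher (9.59%) and 3 lower (8.33%). The 3 lower genes in each of the BALB/c comparisons and the 4 higher ones in the EO771 model are near those shares. Axin2, a feedback inhibitor that is the most used target of the pathway, was 7.73, 7.81 and 8.15 in 67NR and 8.36, 8.25 and 8.10 in EMT6.5. It was 5.58 to 5.72 in 4T1.2, 5.31 to 5.49 in EO771 and 5.58 to 5.75 in EO771.LMB. The 67NR and EMT6.5 tumours thus formed the high range, as they did for Fzd1. 4T1.2 was 4.75-fold lower than 67NR (-2.25, SE 0.12, adjusted p = 5.6e-09), while Sfrp1, Fzd3 and Wnt10a were higher in it. Tnfrsf19 had the opposite order in that pair, with 7.58, 7.74 and 7.72 in 4T1.2 and 5.12, 5.35 and 5.39 in 67NR (5.27-fold, adjusted p = 1.6e-09). Bmp4 fell by 2.94 (adjusted p = 5.8e-11), whereas Apcdd1 rose by 1.67 (adjusted p = 4.4e-04) and Wisp1 by 1.58 (adjusted p = 7.4e-05). Apcdd1 is also counted among the higher genes of the list of Wnt secretion and other secreted modulators. No gene of these 3 lists was called in the EO771 pair, where only 0.0197% of all clusters were called in either direction.

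**Figure D4:**
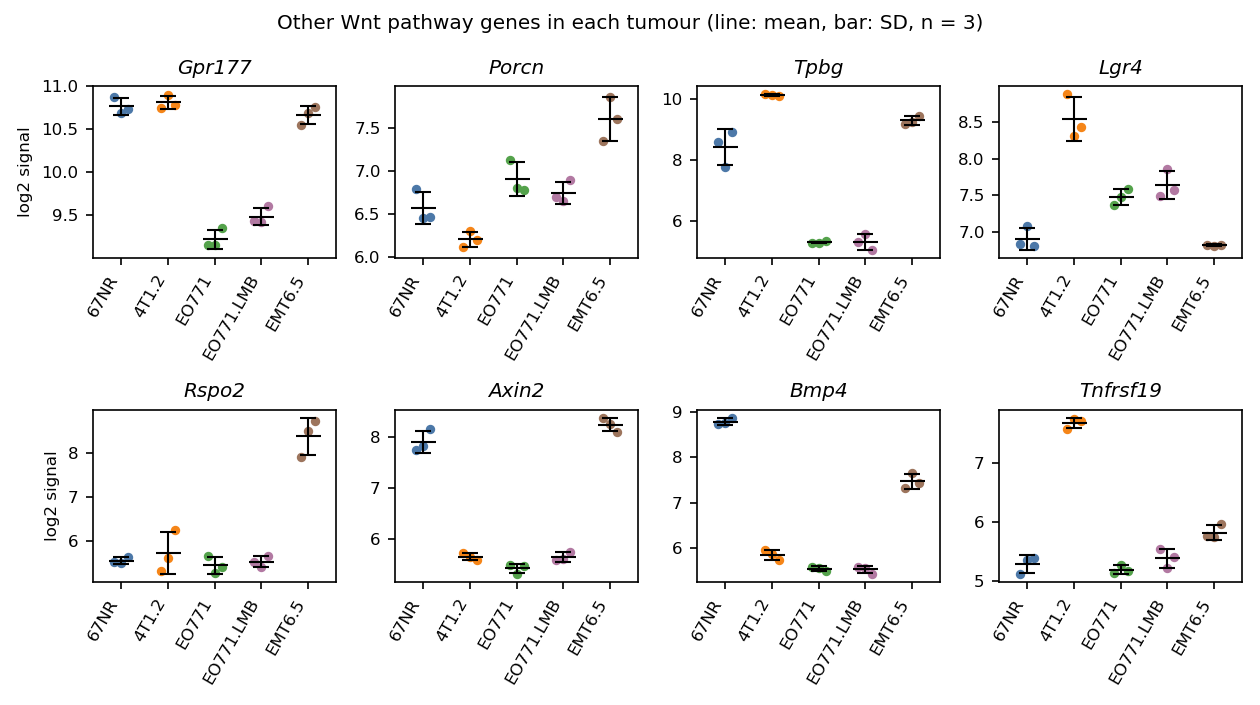
The log2 signal in every tumour is plotted for 8 other genes of Wnt secretion, reception and response, with the mean (line) and SD (bar) of the 3 tumours of each type. Axin2 is high in 67NR and EMT6.5 and at 5.31 to 5.75 in the other types, and Rspo2 is high in EMT6.5 alone.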

How the data were processed

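Log2 signals of 35556 transcript clusters were used as the authors deposited them, after background adjustment, quantile normalization and summarisation of probes. The methods give GCRMA for these steps, but Partek 6.6 and RMA stand in the submitters' notes on processing, so which of them made the values is not settled. The workbook sheet and the series table held the same values (0 of 533340 differed). In the workbook, 30 further per-sample columns were not used, nor were the authors' own fold changes and p-values. No detection values were used, and precision is limited by the number of arrays.

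The values were not filtered. A linear model with tumour type as the term was fitted to all 15 tumours (limma 3.58.1 in R 4.3.3), and within each comparison p-values were adjusted over all clusters (Benjamini-Hochberg, threshold 0.05). The p-values rest on the spread between tumours of the same line, with 3 tumours per line. That spread is 1 estimate per cluster over the 5 lines, which limma moderates with all clusters. A gene with several clusters was represented by the cluster with the highest mean signal. Of 202 genes of the pathway and marker lists 201 were measured, 9 under an older symbol. Members, lists and tests were chosen with earlier results of these data known. Genes given with the value in every tumour are those called over the 5 types with type means at least 1 apart, and other pathway genes are at most the 3 with the largest called difference per list, direction and comparison, apart from Krt8, Epcam and Cdh1, which check the tissue. A list's summed signal is the sum of its genes' linear signals. Promoter windows are RefSeq's, and motifs in them were matched as exact letters.

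The alternatives were centring of arrays, quantile normalization, a filter at the median signal, the methods' one-way analysis of variance, a fit to the compared types alone, an intensity trend with robust prior variance, averaging a gene's clusters, the series table, the unadjusted threshold, each tumour left out in turn, and tumour number as a block. Deviations of tumours with the same number and with different numbers correlated over similar ranges, which does not settle whether the number had an effect.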

Additional observations from a re-analysis of the deposited data

Results flagged for a closer look

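For 5 genes the change from 67NR to 4T1.2 differed from the change from EO771 to EO771.LMB, by limma's test of that difference over all clusters (adjusted p under 0.05, which 10.2% of clusters passed in either direction). Sfrp1 was higher in 4T1.2 by 2.35 and stood at -0.27 in EO771.LMB against EO771, a difference of 2.62 (95% interval 2.01 to 3.23, adjusted p = 2.6e-05). The difference was 1.75 for Fzd3 (SE 0.26, adjusted p = 4.1e-04), 1.27 for Wnt10a (0.86 to 1.67, adjusted p = 4.8e-04) and 1.04 for Fzd6 (0.63 to 1.44, adjusted p = 0.0022). For Wnt6 it was 0.85 (0.39 to 1.31, adjusted p = 0.020), and this call was lost without 67NR replicate 1 (adjusted p = 0.056) or 3 (0.052). In each of these genes all 3 tumours of 4T1.2 lay above all 3 of 67NR. Host strain and model cannot be told apart in these differences.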

How the results depend on the processing

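No result reversed in any alternative, and of 2920 values of named genes under alternatives 158 lost the adjusted threshold and 2762 kept direction and side. With only clusters above the median signal, which leaves 10 of the 37 genes to test, 8 differed over the 5 types, 4 were higher in 4T1.2 than in 67NR, the difference between the pairs was called higher in 2 and lower in 1, the EO771 model was higher in 1 and lower in 7 against the 4T1 model, and EMT6.5 was lower in 0. At an unadjusted p under 0.05, limma and one-way analysis of variance each called 4 genes higher in EO771.LMB, 10 higher and 3 lower for the difference between the pairs, 4 higher in the EO771 model and 3 lower in EMT6.5, and limma called 5 higher in EMT6.5. Centring gave 2 lower genes for the difference between the pairs and 4 higher ones in the EO771 model, and quantile normalization 1, 4 and, in EMT6.5, 0 lower. One-way analysis of variance with adjustment and a fit of only the types compared also gave 0 lower in EMT6.5. The cause was not tested.

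With each tumour left out in turn the counts were 18 to 20 over the 5 types, 8 to 13 higher and 1 lower for 4T1.2 against 67NR, 0 for EO771.LMB against EO771, 4 to 9 higher and 0 to 2 lower for the difference between the pairs, 2 to 3 higher and 12 to 14 lower for the EO771 model, and 1 to 5 higher and 0 to 1 lower for EMT6.5. The 9 came without 4T1.2 replicate 3, the 2 lower without 67NR replicate 2 (1 without EO771.LMB replicate 1), the 5 without 4T1.2 replicate 1 and the 1 without EMT6.5 replicate 1 or 2, of which the second gave the 0. Where a fit leaves 2 tumours in a type, the spread is shared with the other types.

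Deviations of same-numbered tumours correlated at -0.17 to 0.15, 4 of 30 above 0.1, and those of different numbers at -0.16 to 0.21. Of 15 tumours 8 were closest to their own number. These values do not settle whether same-numbered tumours share an effect. With the replicate block 20 genes differed over the 5 types, 13 were higher and 1 lower in 4T1.2 than in 67NR, 0 were called in EO771.LMB, 5 were higher for the difference between the pairs, 2 higher and 14 lower in the EO771 model, and 2 higher and 1 lower in EMT6.5, where Wnt10b was lost. Of the 37 genes 10 lie above the median signal, and without detection values a dim gene that did not pass cannot be told from one not expressed.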

Other observations

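Of 15 planar cell polarity genes, which act downstream of Frizzled receptors without beta-catenin, 3 were higher (8.69% of all clusters) and 2 lower (9.12%) in 4T1.2 than in 67NR. Daam2, a formin that links Dishevelled to the cytoskeleton, was 8.40, 8.11 and 8.00 in the 67NR tumours and 4.07 to 5.06 in the other 12. It was 14.5-fold lower in 4T1.2 than in 67NR (difference -3.86, SE 0.14, limma adjusted p = 1.4e-10). Its relative Daam1 was 1.21 higher in the EO771 model than in the 4T1 model (SE 0.06, adjusted p = 1.8e-09), with all 6 tumours above the other model's 6. Against the 4T1 model 4 of the 15 were higher (19%) and 6 lower (19.3%) in the EO771 model.

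Of 32 genes of the beta-catenin pathway inside the cell, 4 were higher (8.69% of all clusters) and 4 lower (9.12%) in 4T1.2 than in 67NR, and 4 were higher (19%) and 8 lower (19.3%) in the EO771 model than in the 4T1 model, all near those shares or below them. Bcl9, a beta-catenin coactivator, was 1.08 lower in the EO771 model (difference -1.08, SE 0.10, adjusted p = 3.8e-07). Tcf7l2, a transcription factor of the pathway, was 0.79 higher in EMT6.5 than in the 4T1 model (SE 0.09, adjusted p = 3.5e-05).

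Among the targets, Myc was 11.40 to 11.79 in the tumours of the EO771 model and 8.54 to 9.75 in those of the 4T1 model (difference 2.52, 5.75-fold, adjusted p = 1.6e-10), and Sox9 (1.66) and Cd44 (1.21) were higher there as well. Jag1 was higher in EMT6.5 than in the 4T1 model by 1.48 (SE 0.17, adjusted p = 2e-05).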
